A study of Mus musculus with 6 samples.

Results

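Transcripts of 10 circadian clock genes were measured in BV2 cells given lipopolysaccharide (LPS) or vehicle. The genes were Per1, Per2, Cry1, Cry2, Nr1d1, Nr1d2, Arntl (also called Bmal1), Clock, Dbp and Bhlhe40, picked by symbol among the 55401 genes of the table. All 10 had a row, and all 10 were among the 16371 genes that passed the filter on low counts. BV2 is a mouse microglial line immortalised with a retrovirus that carries oncogenes, so both groups share a single transformed line. The Vehicle group and the LPS group held 3 libraries each. The labels gave no dose of LPS, no length of treatment, no hour of harvest and no word on whether the clocks of the cells had been synchronised. Separate cultures are not mentioned in them, and p-values therefore reflect only how much these libraries vary, which may be technical. The study sought regulators of microglial inflammation, and LPS was compared with Vehicle.

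The mammalian clock is a feedback loop of transcription that runs in nearly every cell, microglia and macrophages included. The proteins of Arntl and Clock bind E-boxes in DNA as a pair and activate the Per, Cry and Nr1d genes. The PER and CRY proteins then inhibit that pair, while the REV-ERB proteins of Nr1d1 and Nr1d2 repress Arntl through ROR elements. Dbp drives genes with D-boxes, and Bhlhe40 competes for E-boxes. In macrophages the clock is known to gate the response to LPS, and REV-ERB proteins are known to repress inflammatory genes.

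Library totals ran from 45969690 to 59023474 estimated counts. Low values piled up in part at steps of 3.75 to 3.80 counts, so a count is probably not a single read. Under the quasi-likelihood test of edgeR, 23.6% of tested genes differed between LPS and Vehicle (adjusted p under 0.05 after Benjamini and Hochberg), 12.7% being higher and 10.9% lower with LPS. Such a gene is said below to have risen or fallen, or to have been called. Of the calls 53.9% were higher with LPS, against 42.2% when libraries were scaled by total counts alone. The 8 markers of microglia and macrophages summed to 2040 to 2330 CPM (counts scaled to a fixed library total) in Vehicle and 1600 to 2130 CPM in LPS libraries, and Cd68 alone made up 959 CPM of the Vehicle mean. None of the 8 rose and 2 fell, Csf1r 2.67-fold (edgeR adjusted p = 1.44e-05) and Tyrobp 1.47-fold (edgeR adjusted p = 0.0178), and Aif1 stood at only 2.36 to 4.58 CPM in Vehicle. Of 5 lymphocyte markers 3 were at 0 in every library. The 5 oligodendrocyte markers summed to 35.9 to 40 CPM in Vehicle and 36 to 42.7 CPM in LPS. Most of this was Cnp, with a Vehicle mean of 32.1 CPM. The 5 astrocyte markers summed to 3.82 to 7.8 CPM in Vehicle and 1.7 to 5.51 CPM in LPS. For the 5 fibroblast markers these sums were 0.264 to 0.451 CPM and 0.16 to 0.779 CPM. The 5 neuron markers summed to 3.50 to 10.4 CPM in Vehicle, 0.16 CPM in LPS 1 and up to 11.4 CPM in the other LPS libraries, and the part of this in the results was not tested. In such bulk libraries fewer cells of a type and less RNA per cell cannot be told apart. On the second principal component of log2 CPM, with 19.3% of the variance, LPS 1 and LPS 3 lay at opposite ends.

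Of the 10 clock genes, 5 rose and none fell. The 5 that rose were Per1, Per2, Cry1, Cry2 and Nr1d1, with fitted changes from 1.34-fold to 2.33-fold. Genes higher with LPS made up 12.7% of all tested genes. The activator genes Arntl and Clock, the repressor genes Nr1d2 and Bhlhe40 and the output gene Dbp did not pass the test. At an unadjusted p under 0.05 from edgeR 1 clock gene, Arntl, was lower, and neither DESeq2 nor limma voom called a clock gene lower. The libraries of the groups did not overlap for 8 of the 10 genes, 5 higher and 3 lower with LPS. Among all tested genes 40.8% did so, 20.8% higher and 20.0% lower. The median log2 fold change of the 10 was 0.17, against -0.02 over all tested genes.

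This count changed when single libraries were left out, and so did the count over all genes. It was 2 rises without Vehicle 1, Vehicle 3 or LPS 2, and 3 without Vehicle 2, without LPS 1 or with scaling by total counts. Over all tested genes 2082 of 16371 rose with all libraries. Without Vehicle 1, Vehicle 3 or LPS 2 it was 1431 of 17036, 1467 of 17136 and 1549 of 17074. It was 1291 of 17116 without Vehicle 2, 1546 of 17129 without LPS 1 and 1650 of 16371 with scaling by total counts.

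**Figure D1:**
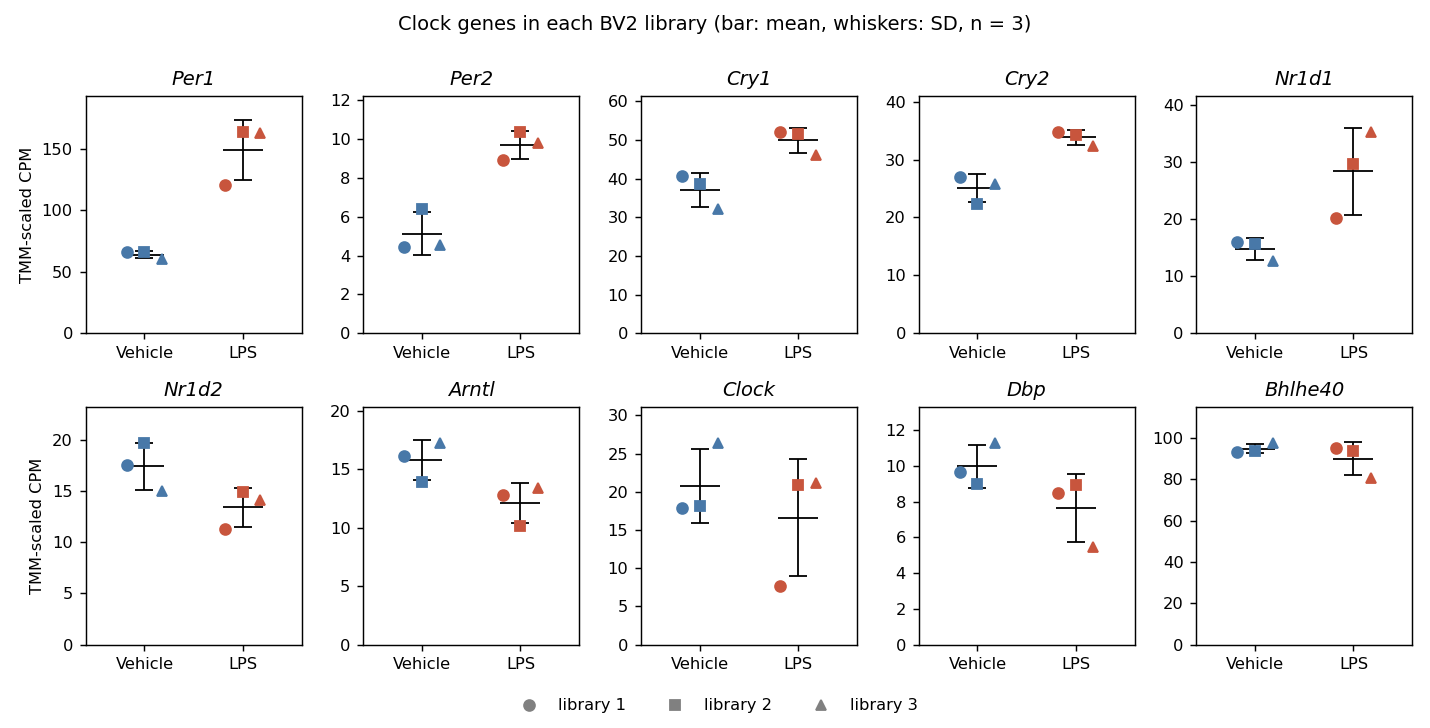
Level of each of the 10 clock genes in TMM-scaled CPM (vertical axes, each starting at 0) in the 3 Vehicle (blue) and 3 LPS (red) libraries, with the mean as a short line and the SD as whiskers. Per1 lies at 60.6 to 65.7 CPM in Vehicle and at 121 to 164 CPM in LPS, and the single low LPS point of Clock is LPS 1 at 7.73 CPM.

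The order of levels was compared per kilobase of the longest annotated transcript, since raw CPM favour long transcripts. In Vehicle, Bhlhe40 had the highest level of the 10 with 30.5 ± 0.74 CPM per kb (SD, n = 3). Per1 (13.7 ± 0.63) and Cry1 (12.3 ± 1.45) followed, and their libraries overlapped. Next came Cry2 (6.30 ± 0.61), Dbp (5.43 ± 0.64) and Nr1d1 (5.41 ± 0.69), each overlapping its neighbour. Arntl (3.95 ± 0.43) and Nr1d2 (3.75 ± 0.50) overlapped as well. Clock had 2.13 ± 0.50 CPM per kb and Per2 had the lowest level, 0.88 ± 0.19 (SD, n = 3), with no overlap between them. In LPS, Per1 stood at 31.9 ± 5.26 CPM per kb, beside Bhlhe40 at 28.9 ± 2.58, and their libraries overlapped. Nr1d1 stood at 10.4 ± 2.81 and Cry2 at 8.51 ± 0.32 CPM per kb in LPS, again with overlap. Clock (1.70 ± 0.79) and Per2 (1.66 ± 0.13) overlapped at the bottom of the order in LPS.

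The period genes encode the PER proteins that carry the cryptochromes into the nucleus and set the length of the cycle. Per1 (ENSMUSG00000020893) had 65.7, 65.7 and 60.6 CPM in Vehicle 1, 2 and 3, and 121, 164 and 163 CPM in LPS 1, 2 and 3. Every LPS library exceeded every Vehicle library, and LPS 1 was the lowest of its group. The log2 fold change was 1.22 ± 0.13 (SE), a 2.33-fold rise with an edgeR adjusted p = 0.000423. Of the 10 genes Per1 changed most, although 11% of all tested genes had a larger change in either direction. It kept its call under all 16 alternatives, with log2 fold changes from 1.13 to 1.34.

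Per2 (ENSMUSG00000055866), the second period gene, lay far below Per1 with 4.46, 6.40 and 4.52 CPM in Vehicle 1, 2 and 3 and 8.91, 10.4 and 9.76 CPM in LPS 1, 2 and 3. The groups were apart, with Vehicle 2 the nearest to LPS. These levels rest on 214 to 547 estimated counts per library. Per2 rose 1.90-fold (log2 fold change 0.92 ± 0.20, edgeR adjusted p = 0.0110). Leaving out Vehicle 1 ended this call (edgeR adjusted p = 0.0515).

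The cryptochrome genes encode the strongest inhibitors of the activator pair. Cry1 (ENSMUSG00000020038) had 40.6, 38.6 and 32.2 CPM in Vehicle 1, 2 and 3 and 52.1, 51.5 and 46.1 CPM in LPS 1, 2 and 3. Cry2 (ENSMUSG00000068742) stood at 27.0, 22.3 and 25.8 CPM in the Vehicle libraries and at 34.8, 34.3 and 32.4 CPM in the LPS libraries. In neither gene did the groups overlap, and every LPS library was the higher one. The rises were small and of like size, 1.34-fold for Cry1 (log2 fold change 0.43 ± 0.12, edgeR adjusted p = 0.0352) and 1.35-fold for Cry2 (log2 fold change 0.43 ± 0.12, edgeR adjusted p = 0.0305). Both calls were lost when any library other than LPS 3 was left out, and with scaling by total counts, with edgeR adjusted p up to 0.117 for Cry1 and up to 0.118 for Cry2.

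Nr1d1 (ENSMUSG00000020889) encodes REV-ERB alpha, the nuclear receptor that binds heme and represses Arntl. It had 16.0, 15.6 and 12.6 CPM in Vehicle 1, 2 and 3 and 20.1, 29.6 and 35.3 CPM in LPS 1, 2 and 3. All LPS libraries were above all Vehicle libraries, and their spread was the wider one. Nr1d1 rose 1.92-fold (log2 fold change 0.94 ± 0.21, edgeR adjusted p = 0.0146). The call was lost without Vehicle 3 or LPS 2, where the edgeR adjusted p was at most 0.0584. In the GENCODE M21 annotation 263 of the 3077 exon bases of Nr1d1 (8.55%) lie over exons of Thra, a thyroid hormone receptor gene on the opposite strand. Thra itself rose from 20.6 to 34.6 CPM (edgeR adjusted p = 0.00354). The counting is not stated to use strand, so reads from those shared bases cannot be told apart.

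Nr1d2 (ENSMUSG00000021775), which encodes the related receptor REV-ERB beta, did not rise with its partner. Its values were 17.6, 19.7 and 15.1 CPM in Vehicle 1, 2 and 3 and 11.3, 14.9 and 14.2 CPM in LPS 1, 2 and 3. The groups came close without overlapping, with LPS lower. The log2 fold change was -0.37 ± 0.17 (edgeR adjusted p = 0.144), with a 95% interval on the log2 scale from -0.75 to 0.005 before adjustment.

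The promoters of Per1, Cry1, Cry2 and Nr1d1, the genes that rose and had a window in the RefSeq table used, are shown because the loop acts on Per, Cry and Nr1d genes through E-boxes. Sequences are those of RefSeq on GRCm38.p6, the 250 bases before an annotated start, read 5′ to 3′ along the gene. Capitals mark exact matches on either strand to the E-box CACGTG or to the variant CACGTT, which reads AACGTG on the other strand. No match overlapped another. Ciart, a further repressor of the activator pair that is described below, is added because it holds 3 matches, and was thus chosen for them.
Per1, chr11:69098699-69098948, plus strand: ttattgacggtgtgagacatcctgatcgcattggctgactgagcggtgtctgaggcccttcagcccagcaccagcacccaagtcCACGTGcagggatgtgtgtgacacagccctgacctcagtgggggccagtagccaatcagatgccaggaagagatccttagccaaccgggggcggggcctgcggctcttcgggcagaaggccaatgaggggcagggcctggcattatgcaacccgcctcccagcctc
Cry1, chr10:85185055-85185304, minus strand: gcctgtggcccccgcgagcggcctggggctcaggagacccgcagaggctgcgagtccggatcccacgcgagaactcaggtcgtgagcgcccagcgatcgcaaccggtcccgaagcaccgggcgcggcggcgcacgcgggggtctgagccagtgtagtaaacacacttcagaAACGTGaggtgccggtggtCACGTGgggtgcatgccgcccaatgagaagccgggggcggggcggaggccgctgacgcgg
Cry2, chr2:92434070-92434319, minus strand: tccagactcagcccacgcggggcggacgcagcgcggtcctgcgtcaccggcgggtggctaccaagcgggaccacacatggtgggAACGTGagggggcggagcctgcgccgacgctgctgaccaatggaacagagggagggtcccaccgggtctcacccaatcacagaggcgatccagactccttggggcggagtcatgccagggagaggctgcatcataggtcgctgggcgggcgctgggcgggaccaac
Nr1d1, chr11:98775378-98775627, minus strand: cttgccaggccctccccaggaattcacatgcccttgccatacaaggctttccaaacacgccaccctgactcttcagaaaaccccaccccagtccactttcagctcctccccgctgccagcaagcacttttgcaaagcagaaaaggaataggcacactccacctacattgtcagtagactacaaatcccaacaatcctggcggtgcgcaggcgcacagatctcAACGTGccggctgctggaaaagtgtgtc
Ciart, chr3:95882229-95882478, minus strand: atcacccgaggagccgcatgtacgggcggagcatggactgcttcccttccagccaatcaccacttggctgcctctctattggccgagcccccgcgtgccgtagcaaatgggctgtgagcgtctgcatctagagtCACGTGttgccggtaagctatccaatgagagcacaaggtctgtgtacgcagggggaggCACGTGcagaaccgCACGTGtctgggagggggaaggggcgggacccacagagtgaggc

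RefSeq windows from 250 bases before to 50 after the start were found for 8 of the 10 clock genes, all but Per2 and Bhlhe40. The E-box was in 2 of these 8, Per1 and Cry1, and in 8.09% of the 27025 genes with a window. Among the other clock transcription factors described below it was in 3 of the 10 with a window: Ciart, which rose, Bhlhe41, which fell, and Tef, which was not called. The windows of Nfil3 and Per3, which also rose, held neither the E-box nor its variant CACGTT. This variant was in 3 of the 8, Cry1, Cry2 and Nr1d1, in 1 of the 10 other factors, Rorb, and in 5.44% of genes. Per1 has a second annotated start, whose window held no match. The D-box, TTATGTAA or TTACGTAA, and the cAMP response element TGACGTCA were in none of the 8, and in 1.23% and 2.03% of genes. Of the 10 other factors with a window, 1 held the D-box, Per3, and 1 held the cAMP response element, Hlf. The NF-kB site was found in 1 of the 8, in a window of Clock, and in 5.14% of genes. The windows of Nr1d2 and Dbp held no match. These are matches of letters in short windows and not sites shown to be bound.

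Arntl and Clock encode the activators. Arntl (ENSMUSG00000055116) had 16.2, 13.9 and 17.3 CPM in Vehicle 1, 2 and 3 and 12.8, 10.2 and 13.4 CPM in LPS 1, 2 and 3. The LPS libraries were all lower, the nearest pair being LPS 3 and Vehicle 2. The log2 fold change of Arntl, -0.38 ± 0.16, missed the threshold (edgeR adjusted p = 0.128). Over the 16 alternatives the log2 fold change stayed between -0.47 and -0.27, and the adjusted p ran from 0.0783 to 0.328. A match to the ROR element that REV-ERB proteins use lay 27 to 37 bases into the transcript from 1 of its 2 annotated starts. Of the 8 clock genes with a window only Arntl held this element, which 0.459% of genes had. The 30 bases around it are shown with the element in capitals, on GRCm38.p6 from RefSeq.
Arntl, chr7:113207527-113207556, plus strand: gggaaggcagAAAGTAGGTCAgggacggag

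Clock (ENSMUSG00000029238), the partner of Arntl in the activator pair, had 17.8, 18.1 and 26.4 CPM in Vehicle 1, 2 and 3 and 7.73, 20.8 and 21.2 CPM in LPS 1, 2 and 3. LPS 1 stood apart and the other LPS libraries lay within the Vehicle range. Its log2 change was -0.32 ± 0.37 (edgeR adjusted p = 0.591), and 0.01 without LPS 1. With all libraries the 95% interval before adjustment ran from -1.21 to 0.57, which spans changes from 0.432-fold to 1.49-fold.

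Dbp (ENSMUSG00000059824) encodes a D-box activator and is a classical target of the E-box loop. It had 9.67, 8.99 and 11.3 CPM in Vehicle 1, 2 and 3 and 8.51, 8.94 and 5.46 CPM in LPS 1, 2 and 3. The groups touched without overlapping, and LPS 3 was the lowest. Its log2 fold change of -0.38 ± 0.22 did not pass the test (edgeR adjusted p = 0.244). Exons of Sphk2 on the opposite strand cover 18% of the exon bases of Dbp, and Sphk2 had 37.2 CPM in Vehicle and 44.9 CPM in LPS (edgeR adjusted p = 0.155).

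Bhlhe40 (ENSMUSG00000030103) encodes DEC1, a repressor that binds E-boxes and also acts in activated immune cells. Its values were 93.3, 93.9 and 97.5 CPM in Vehicle 1, 2 and 3 and 95.3, 93.9 and 80.8 CPM in LPS 1, 2 and 3. The groups overlapped and only LPS 3 was apart. The log2 fold change was -0.08 ± 0.10 (edgeR adjusted p = 0.611). The 95% interval before adjustment, -0.29 to 0.14, spans changes from 0.816-fold to 1.10-fold.

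Pairs of clock genes were set against each other within each library, as log2 ratios of CPM, which removes the scaling of libraries. The ratio of Nr1d1 to Nr1d2 was -0.13, -0.34 and -0.26 in the Vehicle libraries 1, 2 and 3, against 0.83, 0.98 and 1.31 in the LPS libraries. The LPS libraries all lay above the Vehicle libraries. The sign of this ratio depends on transcript length and says nothing of which gene is the more abundant: per kilobase Nr1d1 lay above Nr1d2 in Vehicle too, at 5.41 against 3.75 CPM per kb. The ratio of Arntl to Nr1d1, an activator over the repressor of its gene, went from 0.10 ± 0.32 in Vehicle to -1.19 ± 0.48 in LPS (SD, n = 3), with no overlap. The ratios within the other pairs overlapped between groups. Per1 over Per2 was 3.65 ± 0.27 in Vehicle and 3.93 ± 0.16 in LPS, and Cry1 over Cry2 was 0.57 ± 0.24 and 0.56 ± 0.04 (SD, n = 3). No test was run on these ratios.

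**Figure D2:**
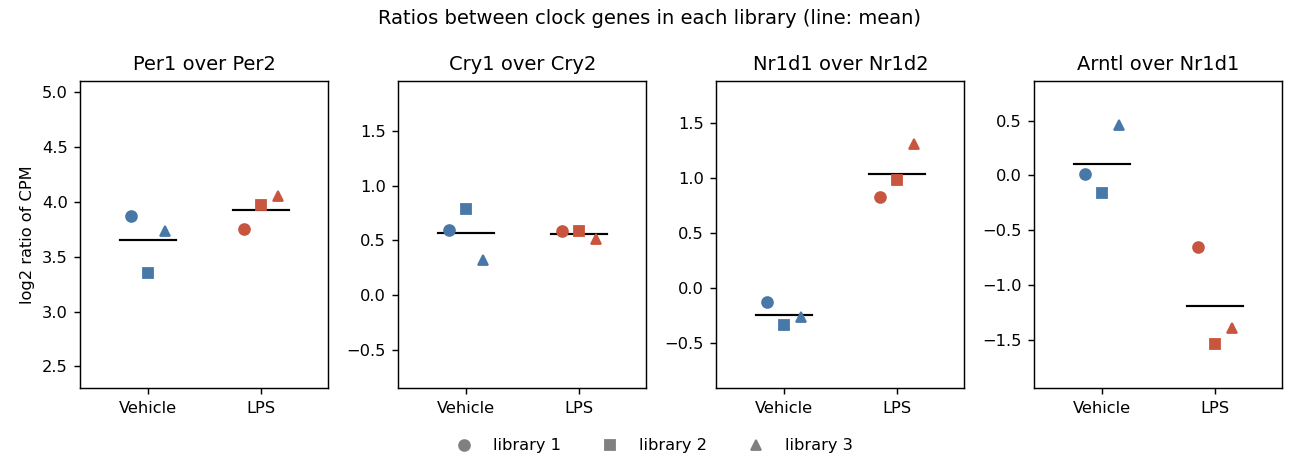
Log2 ratio of CPM between 2 clock genes in each library (vertical axes, all spanning the same range) for Vehicle (blue) and LPS (red), with the mean as a line. Nr1d1 over Nr1d2 has means of -0.24 in Vehicle and 1.04 in LPS, while Cry1 over Cry2 has 0.57 and 0.56.

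Other transcription factors of the clock were listed as 11 genes, of which 9 were tested. Of these 3 rose, 1 fell and 5 were not called, beside 12.7% higher and 10.9% lower among all tested genes. The median log2 fold change was 0.74. Ciart (ENSMUSG00000038550), which encodes the repressor CHRONO, had 7.47, 10.6 and 9.08 CPM in Vehicle 1, 2 and 3 and 16.5, 18.2 and 20.5 CPM in LPS 1, 2 and 3. The groups were well apart, and Ciart rose 2.05-fold (edgeR adjusted p = 0.00358). Per3, a further period gene, stood at 5.24, 4.68 and 3.88 CPM in the Vehicle libraries and at 9.19, 6.67 and 7.32 CPM in the LPS libraries. It rose 1.67-fold with no overlap (edgeR adjusted p = 0.0367). Leaving out LPS 1 or any Vehicle library ended the call, as did scaling by total counts, with edgeR adjusted p up to 0.127. With Ciart and Per3, all 6 tested genes of the PER, CRY and CHRONO repressors were called higher with all libraries.

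Nfil3, a repressor at D-boxes and the counterpart of Dbp, had 36.1, 36.6 and 39.3 CPM in Vehicle 1, 2 and 3 and 81.2, 98.1 and 67.7 CPM in LPS 1, 2 and 3. The LPS libraries were all far above Vehicle. Nfil3 rose 2.21-fold (log2 fold change 1.14 ± 0.14, edgeR adjusted p = 0.000857). The other D-box factors, Tef and Hlf, were not called (log2 fold changes 0.32 ± 0.12 and -1.55 ± 0.91), and Hlf was under 0.4 CPM in all libraries.

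Bhlhe41, which encodes DEC2, the close relative of Bhlhe40, was the gene that fell. It had 88.4, 81.2 and 80.2 CPM in Vehicle 1, 2 and 3 and 56.3, 58.6 and 57.2 CPM in LPS 1, 2 and 3. The LPS libraries were tightly grouped below Vehicle, and Bhlhe41 fell 1.45-fold (log2 fold change -0.54 ± 0.09, edgeR adjusted p = 0.00337). Gm43909 on the opposite strand shares 19% of its exon bases and had 1.98 CPM in Vehicle and 1.01 CPM in LPS.

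Npas2, a stand-in for Clock, averaged 0.83 ± 0.32 CPM over Vehicle libraries and 0.29 ± 0.13 CPM over LPS libraries (SD, n = 3). It did not pass the test (edgeR adjusted p = 0.0890). Rora, an activator at ROR elements, was the most uneven of these genes, with 3.65, 4.37 and 0.78 CPM in Vehicle 1, 2 and 3 and 3.86, 3.37 and 14.4 CPM in LPS 1, 2 and 3. It did not pass the test (edgeR adjusted p = 0.305), and its log2 fold change went from 1.26 to 0.27 without LPS 3. Arntl2 was too low to be tested, and Rorb was at 0 in every library.

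**Figure D3:**
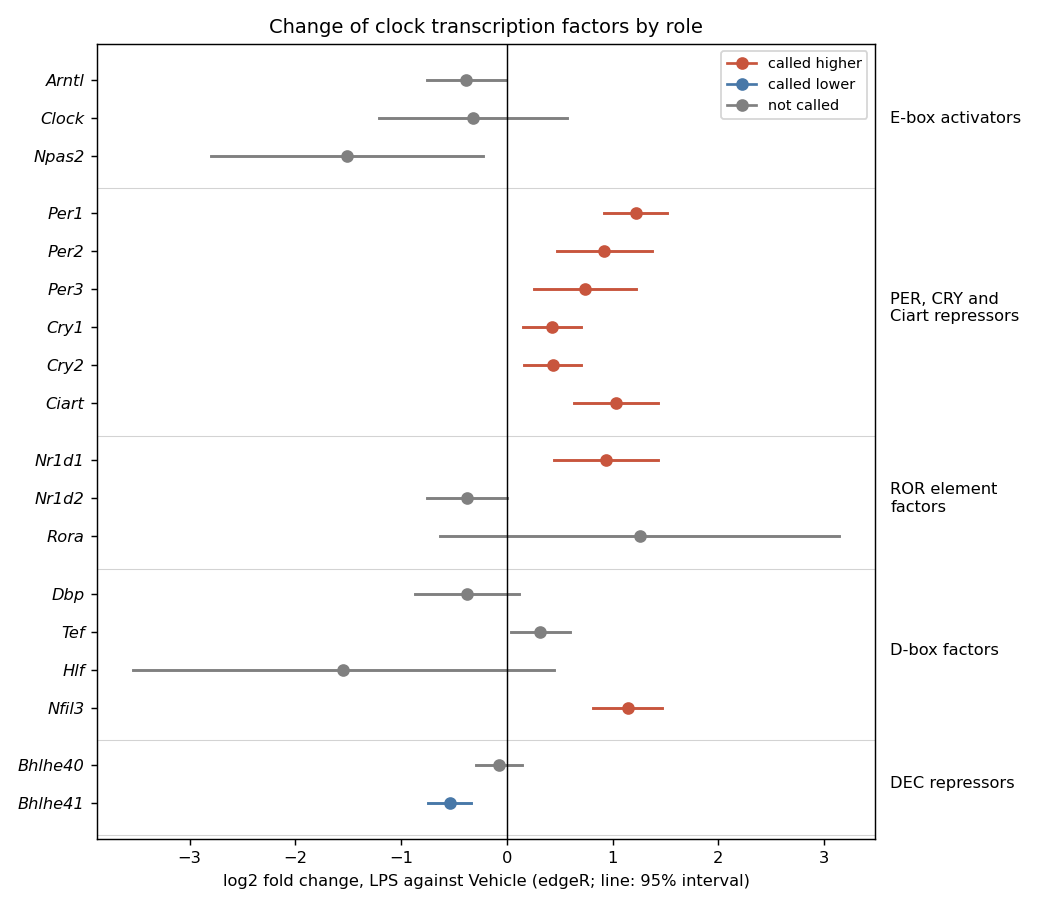
Log2 fold change, LPS against Vehicle, of tested clock transcription factors (points) with 95% intervals before adjustment (lines), grouped by role and coloured by the edgeR call. All 6 PER, CRY and Ciart repressors lie above 0, from 0.43 for Cry1 to 1.22 for Per1, while Arntl, Clock and Npas2 lie below 0 without a call.

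Enzymes that mark the clock proteins for change or removal were listed next. Of 13 tested kinases, ubiquitin ligases and deubiquitinases 3 rose and 2 fell, against 12.7% higher and 10.9% lower among all tested genes. Their median log2 fold change was 0.19. Btrc and Fbxw11, which encode the beta-TrCP proteins that send PER proteins to the proteasome, rose 1.79-fold (edgeR adjusted p = 0.00378) and 1.38-fold (edgeR adjusted p = 0.0176). Csnk1e, casein kinase 1 epsilon, which phosphorylates PER proteins, rose 1.38-fold from 97.6 to 135 CPM (edgeR adjusted p = 0.00757). Usp2, a deubiquitinase whose gene is itself a clock target, fell 1.58-fold from 7.89 to 5.01 CPM (edgeR adjusted p = 0.0280). The second that fell, Csnk1a1, named after its value was seen, changed by -0.25 ± 0.08 on the log2 scale (edgeR adjusted p = 0.0445). No gene of this list fell with a block for the replicate number, or when any library other than LPS 3 was left out. Fbxw11 was not called when Vehicle 2, Vehicle 3, LPS 1 or LPS 2 was left out (adjusted p up to 0.0747).

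Of 13 tested cofactors and corepressors of the clock proteins, activators included, 3 fell and none rose by edgeR. None rose at an unadjusted p under 0.05, by DESeq2 or by limma voom either. Without LPS 3, 1 rose. Sfpq, a splicing factor found in PER complexes, fell 2.10-fold from 337 ± 7.18 to 160 ± 35.6 CPM (SD, n = 3, edgeR adjusted p = 0.00130). Timeless, which is needed at replication forks and binds CRY proteins, fell 1.77-fold (edgeR adjusted p = 0.00154). Kat2b, an acetyltransferase that works with the activator pair, fell 1.42-fold (edgeR adjusted p = 0.0212). That call ended when LPS 2 or any Vehicle library was left out (adjusted p up to 0.0794). Ncor1 and Hdac3, the corepressor pair of REV-ERB proteins, had log2 fold changes of -0.01 ± 0.15 and -0.02 ± 0.10 and are named after their values were seen. The median of the list was -0.04, and among all tested genes 23.6% were called, 10.9% lower.

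Of 7 tested output genes of the clock, some of which also stand in the lists above, 1 rose and 2 fell, where 12.7% and 10.9% of all tested genes did so. Their median log2 fold change was -0.17. Wee1, a kinase that holds back entry into mitosis and a classical E-box target, had 38.4, 35.2 and 37.2 CPM in Vehicle 1, 2 and 3 and 16.9, 12.7 and 13.0 CPM in LPS 1, 2 and 3. The groups were far apart, and Wee1 fell 2.60-fold (log2 fold change -1.38 ± 0.14, edgeR adjusted p = 0.000357). Usp2, given above, was the other that fell. It lost its call with a block for the replicate number or when any library other than LPS 3 was left out (adjusted p up to 0.106). Por, the electron donor of cytochrome P450 enzymes, rose 1.39-fold (edgeR adjusted p = 0.0163), a call that ended when any Vehicle library was left out (adjusted p up to 0.0675). DESeq2 called 2 output genes higher.

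CREB, the factor through which cAMP switches on Per1, and its partners were listed as 9 genes. By edgeR 4 rose and none fell, also none at an unadjusted p under 0.05, by DESeq2 or by limma voom, and the median was 0.30. Of all tested genes 12.7% rose. Crem, which encodes activators and repressors of the CREB family, rose 2.24-fold from 7.39 ± 1.17 to 16.6 ± 1.33 CPM (SD, n = 3, edgeR adjusted p = 0.00160). Sik3, a kinase that restrains the CREB coactivators, rose 1.68-fold, Creb1 rose 1.61-fold and the coactivator gene Crtc2 1.35-fold, with edgeR adjusted p of 0.00268, 0.0176 and 0.0310. Without Vehicle 1, Vehicle 3 or LPS 2 only 2 of the list were called higher, and without LPS 3 1 was called lower. Creb1 was also not called without LPS 1, nor Crtc2 without Vehicle 2 or with scaling by total counts (adjusted p up to 0.117).

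**Figure D4:**
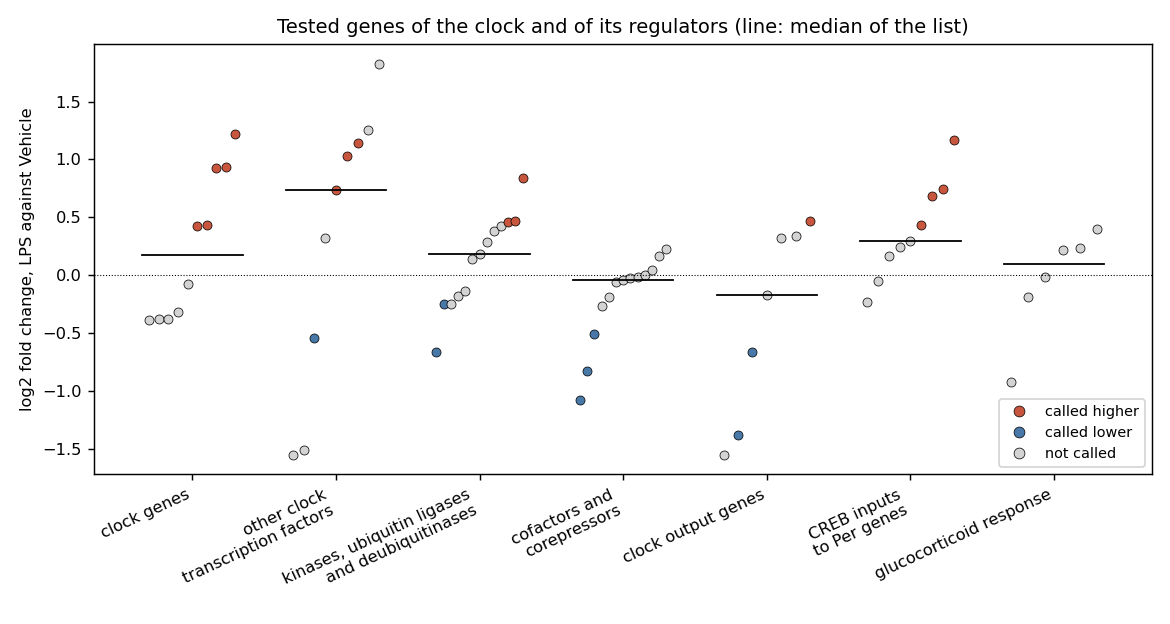
Log2 fold change, LPS against Vehicle, of each tested gene (points, coloured by the edgeR call) in the lists of the clock and its regulators, with the median of each list as a line. The medians run from -0.17 for the output genes to 0.74 for the other clock transcription factors, and Wee1 at -1.38 is the lowest called gene.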

How the data were processed

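Per the labels' protocols, mRNA was enriched with oligo(dT) beads, made into libraries with a NEBNext Ultra kit and read on an Illumina NovaSeq. The submitters' processing notes name Bowtie2 2.2.8, HISAT2, StringTie 1.3.1 and DESeq2 without their roles. For build, annotation and use of strand, nothing is given in the sources used here. The deposited values are estimated counts per gene, made by the authors for each library. All were whole numbers, so rounding changed none, and 0 columns were unmapped. Symbols, transcript lengths and overlaps came from GENCODE M21, which held 55141 of the 55401 identifiers.

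The test was edgeR 4.0.16 in R 4.3.3, with filterByExpr (minimum count 10, minimum total 15), TMM scaling and the robust quasi-likelihood F-test, two-sided, adjusted over all tested genes. SE is the log2 fold change over the square root of F, and 95% intervals use the fitted degrees of freedom. Log2 CPM used a prior count of 2. Values of CPM are over all genes of the table. Alternatives were other scalings, filters on low counts (none, or at least 1 CPM in 3 libraries), DESeq2 1.42.0, limma 3.58.1 (voom), division of values by their step, a block for the replicate number and leaving out each library. The edgeR test as before version 4 was added after seeing the data. The procedure was tested on simulated data.

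The members and lists were chosen with earlier results of these data known. Named are all clock genes and other clock transcription factors, of which 1 is counted in its list but not reported here, and up to 4 called genes with the largest changes in each other list. Depth bears on the lowest genes, and intervals cover the spread between libraries only. Figures were drawn with matplotlib 3.10.9.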

Additional observations from a re-analysis of the deposited data

How the results depend on the processing

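Of the 16 alternatives, the 10 clock genes kept a count of 0 lower with LPS in all, and 5 called higher in 10. The count called higher was 3 with scaling by total counts, and 2 to 5 when a library was left out. Over all genes, 1291 to 2450 were higher and 1053 to 2085 lower when a library was left out, against 2082 and 1782 with all libraries. Clock reversed without LPS 1, to a log2 fold change of 0.0118 (-0.5303 without LPS 3, its lowest), the only reversal among the genes named by rule, and the cause was not tested. Whether equal replicate numbers pair the libraries was not settled. Deviations of same-numbered libraries correlated at 0.0734, 0.0453 and 0.0581 across genes, each the highest for its libraries. The other pairs ran from -0.0623 to 0.0082. These values are small, and 3 libraries per group are too few to decide on pairing. With a replicate block 2033 genes were higher and 1783 lower, and 5 clock genes were higher. Among clock genes and other clock factors the block changed no call. Fewer samples lower the power of each fit that leaves out a library. Depth limits Arntl2, Rorb, Hlf and Npas2 most, as they lie near 0 in some or all libraries.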

Other observations

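Genes that REV-ERB proteins are known to repress in macrophages were listed as 7 genes, Arntl among them. By edgeR 5 rose and none fell, and 2, Arntl and Cx3cr1, were not called, where 12.7% of all tested genes rose and 10.9% fell. The median log2 fold change was 2.39. At an unadjusted p under 0.05, 2 were lower, and limma voom called 1 lower and DESeq2 none. By edgeR 1 was lower with scaling by total counts or without LPS 3. The list holds cytokine genes that LPS is known to induce by other routes. REV-ERB activity was not tested. Il6 and Il1b, cytokine genes, had log2 fold changes of 7.97 ± 0.25 and 7.90 ± 0.37. Ccl2, a chemokine gene, rose from 520 ± 16.7 to 4133 ± 246 CPM (SD, n = 3), and Mmp9, a matrix protease gene, rose 5.25-fold. Nlrp3, an inflammasome sensor gene named after its value was seen, rose 1.96-fold. Cx3cr1, a fractalkine receptor gene, had 2.38, 2.50 and 2.11 CPM in Vehicle 1, 2 and 3 and 0.72, 0.66 and 1.70 CPM in LPS 1, 2 and 3 (edgeR adjusted p = 0.0568). Its libraries did not overlap between the groups, with LPS lower.

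Glucocorticoids also switch on Per1, and 6 genes of that response were listed. None rose or fell by edgeR, against 23.6% called among all tested genes. At an unadjusted p under 0.05 1 was higher, and DESeq2 and limma voom called 1 higher. The gene under that unadjusted p was Sgk1, a kinase gene, with 15.5, 15.3 and 13.6 CPM in the Vehicle libraries and 19.8, 20.0 and 18.9 CPM in the LPS libraries (log2 fold change 0.40 ± 0.13, edgeR adjusted p = 0.0522). The median log2 fold change was 0.10. Tsc22d3 and Klf9, both classical targets of the receptor, had log2 fold changes of -0.02 ± 0.23 and 0.22 ± 0.10. Fkbp5 had 0.24 ± 0.23, Zbtb16 had -0.92 ± 0.48 and Nr3c1, the gene of the receptor, had -0.19 ± 0.12. The libraries of the groups did not overlap for 2 of the 6, Sgk1 and Klf9, both higher with LPS. Of all tested genes 20.8% did not overlap with LPS higher. All 6 genes were named after their values were seen.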
